A study of Mus musculus with 9 samples.

Results

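The genes described are 35 mouse genes of MHC antigen processing and presentation: class I and class I-like heavy chains, the class I light chain and peptide-loading proteins, immunoproteasome subunits and proteasome activators, class II chains with their loading factors, and transcriptional regulators. They were taken by symbol out of the 55487 genes counted, and all 35 symbols matched a gene. Of these, 20 lie on chromosome 17, most of them in the MHC, and 15 lie on 11 other chromosomes. RNA was sequenced from RAW264.7 cells, a macrophage line derived from a BALB/c mouse, without any stimulation. The cells were wild-type for Cebpd (the gene of C/EBPδ, a CCAAT/enhancer binding protein), lacked C/EBPδ (knock-out) or carried C/EBPδ without its transactivation domain (ΔTAD), with 3 libraries each. Both edited genotypes were made with CRISPR/Cas9 guides on either side of the transactivation domain, the mutations were homozygous, and clones in which the deletion put the reading frame out of register served as knock-out cells. Edited cells thus went through transfection, sorting and growth from single cells, and the series' design text speaks of 3 independent clones without saying of which genotype, so the p-values measure the spread between these libraries, which may be technical. In their experiments on stimulated cells the authors used individual clones of the wild-type as well. They do not state whether those clones gave the RNA libraries. Cells of the BALB/c strain carry MHC alleles other than those of the reference genome, in all 3 genotypes, so that counts of the polymorphic class I genes rest on reads close enough to the reference alleles.

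MHC class I molecules show peptides from the cell's own proteins to CD8+ T cells. The peptides are cut by the proteasome, whose catalytic subunits can be replaced by those of the immunoproteasome, pass into the endoplasmic reticulum through the TAP transporter, are trimmed there by ERAP1 and are loaded with the help of tapasin onto a heavy chain bound to β2-microglobulin. MHC class II molecules show peptides from ingested material to CD4+ T cells, with the invariant chain CD74, the reductase IFI30 and the H2-DM dimer acting in endosomes. Class I genes are driven by NLRC5 and class II genes by CIITA, which act through a DNA-bound complex that holds RFX5. Resting macrophages carry class I molecules, whereas class II molecules rise mainly after interferon-γ.

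Stretches just before the transcription start are shown for 4 genes on which the results turn, each 5′ to 3′ on the strand of the gene, with motif matches in capitals. H2-Q4 is a class I gene that rose in both edited genotypes, B2m encodes β2-microglobulin and lies outside chromosome 17, H2-M3 is a class I-like gene that fell in ΔTAD macrophages, and Ifi30 is 1 of 2 genes in the set with a C/EBP core. The sequences are those of RefSeq on GRCm38.p6, at chr17:35379367-35379616 (plus strand), chr2:122147437-122147685 (plus), chr17:37269984-37270219 (plus) and chr8:70766664-70766913 (minus). The stretch of H2-Q4 overlaps an exon of the antisense gene Gm11131 and that of Ifi30 an exon of the transcript 6330537M06Rik.
H2-Q4: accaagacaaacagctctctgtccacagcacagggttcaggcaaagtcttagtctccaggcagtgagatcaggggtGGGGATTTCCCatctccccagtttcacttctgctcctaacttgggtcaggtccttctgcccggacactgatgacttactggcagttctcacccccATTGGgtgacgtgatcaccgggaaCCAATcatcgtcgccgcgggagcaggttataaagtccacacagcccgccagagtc
B2m: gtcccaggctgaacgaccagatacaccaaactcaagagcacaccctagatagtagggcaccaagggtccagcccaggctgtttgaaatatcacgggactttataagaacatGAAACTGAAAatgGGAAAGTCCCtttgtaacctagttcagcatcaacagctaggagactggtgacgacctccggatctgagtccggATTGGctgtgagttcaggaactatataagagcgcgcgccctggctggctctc
H2-M3: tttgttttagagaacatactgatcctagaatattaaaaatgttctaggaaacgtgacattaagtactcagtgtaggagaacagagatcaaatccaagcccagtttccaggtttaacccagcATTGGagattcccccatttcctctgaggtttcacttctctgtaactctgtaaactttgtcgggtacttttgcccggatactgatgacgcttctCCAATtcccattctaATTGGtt
Ifi30: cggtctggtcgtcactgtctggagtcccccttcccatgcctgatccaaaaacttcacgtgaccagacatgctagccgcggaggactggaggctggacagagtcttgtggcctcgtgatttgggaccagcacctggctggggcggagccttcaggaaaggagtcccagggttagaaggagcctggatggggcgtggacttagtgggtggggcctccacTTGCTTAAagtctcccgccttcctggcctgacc

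Capitals mark the CCAAT box (CCAAT), a C/EBP core (TTGCNNAA), an interferon-stimulated response element (GAAA, any 2 bases, GAAA) and an NF-κB element (GGG, any 2 bases, TT, any base, CC), each searched on both strands in the 250 bases before a start, where matches may overlap one another. In the H2-Q4 stretch the capitals are an NF-κB element followed by a CCAAT box on each strand, and in the B2m stretch a response element, an NF-κB element and a CCAAT box. The H2-M3 stretch holds 3 CCAAT boxes, and the Ifi30 stretch holds a C/EBP core alone. Windows were at hand for 27 of the 35 genes and for 27025 genes in all. The CCAAT box was found in 19 of the 27 (70.4%, against 37.5% of all genes), the C/EBP core in 2, H2-T23 and Ifi30 (7.41% against 10.8%), the response element in B2m, H2-T22 and H2-T23 (11.1% against 3.46%) and the NF-κB element in 7 (25.9% against 4.71%). The 7 are B2m, H2-Aa, H2-D1, H2-K1, H2-Q4, H2-Q6 and H2-Q7, and the class I genes among them are close copies of each other. These copies are also among the 19 with a CCAAT box, and the box of Tap1 is that of Psmb9 read on the other strand. The 19 are thus not independent. These matches describe letters in a window and were not tested for binding.

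Libraries held between 16113306 and 20981829 counts on genes, and a count of 3, taken as the floor, was worth 0.143 to 0.186 CPM (each library's counts on one shared scale, set with the TMM factors of edgeR). Cebpd itself stood at 6.51 ± 0.674 CPM (SD, n = 3) in wild-type, 5.44 ± 0.201 CPM in knock-out and 5.43 ± 0.668 CPM in ΔTAD macrophages, and passed the test in neither edited genotype. ΔTAD replicate 1 stood apart, since the transcript CT010467.1 took 11.0% of its counts, against 0.303% to 1.16% in the other 8 libraries, and results that change without this library are given both ways. Of 12 macrophage markers, 9 were above the floor, C1qa was at 0, and their summed level was 3376 to 3561 CPM in wild-type, 4462 to 4847 CPM in knock-out and 6909 to 7098 CPM in ΔTAD macrophages. Of 8 dendritic cell markers, 3 were above the floor, Flt3 was at 0, and the sum was 15.9 to 17.5 CPM in wild-type, 7.06 to 9.28 CPM in knock-out and 6.52 to 7.27 CPM in ΔTAD macrophages. B cell, fibroblast and epithelial markers were all at or near 0, and T and NK cell markers summed to at most 0.629 CPM. The part of these marker levels in the results was not tested, and in bulk RNA fewer cells expressing a gene and less RNA per cell cannot be told apart.

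In wild-type macrophages the most abundant of the 35 genes per length of exon was Ifi30, a thiol reductase of endosomes, at 259 ± 6.897 CPM per kb (SD, n = 3), followed by B2m at 223 ± 1.81 and Psme3, a nuclear proteasome activator, at 123 ± 2.14 CPM per kb. H2-D1 was the most abundant heavy chain at 44.3 CPM per kb, ahead of H2-M3 at 31.2 and H2-K1 at 18.3 CPM per kb, while the other heavy chains with a tested level lay between 0.678 (H2-T24) and 7.42 (H2-Q4) CPM per kb. The order among the heavy chains rests on reads close enough to the reference alleles and is uncertain. Tapasin (Tapbp) stood at 20.6, Tap2 at 3.16 and Tap1 at 1.74 CPM per kb. Neighbours in this order were often alike: the libraries of H2-M3 and Sec61b overlapped, as did those of H2-K1 and Psme1, of Psme2 and Erap1, and of Psmb8 and Psmb10, whereas those of Ifi30, B2m, Psme3 and H2-D1 did not overlap in this sequence. At the bottom were the class II genes, with H2-Aa, H2-Ab1, H2-Eb1 and Ciita at 0 in all wild-type libraries.

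**Figure D1:**
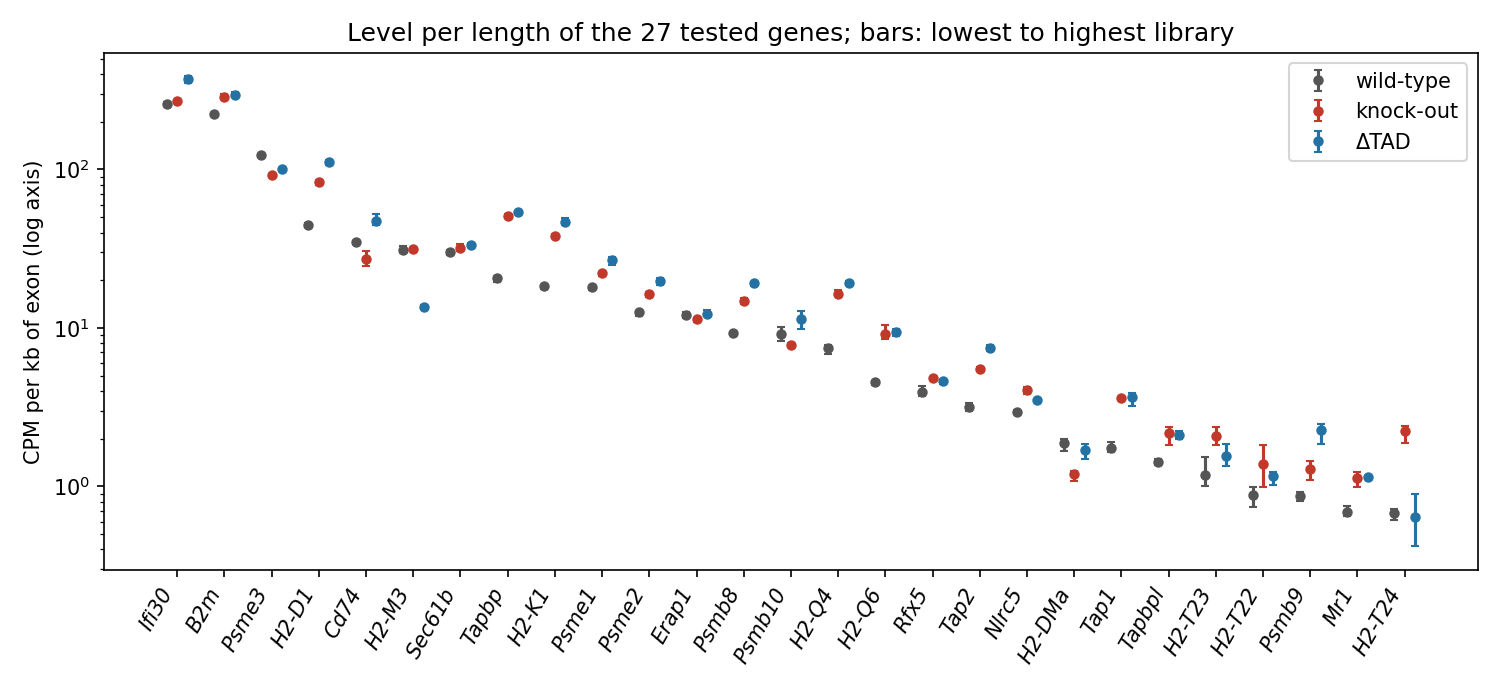
Level per length (CPM per kb of exon, log axis) of the 27 tested genes in wild-type, knock-out and ΔTAD macrophages, ordered by the wild-type level; points are means of 3 libraries and bars reach from the lowest to the highest library. In wild-type macrophages the level falls from 259 CPM per kb for Ifi30 to 0.678 CPM per kb for H2-T24, and the edited genotypes lie above wild-type for most class I genes.

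Most of these genes were higher in the edited macrophages. Among the 27 genes that passed the filter on low counts, 19 rose and 3 fell in knock-out macrophages at an adjusted p-value under 0.01 (edgeR), where 22.8% of all 14312 tested genes rose and 22.4% fell. In ΔTAD macrophages 19 rose and 2 fell, where 26.3% of all genes rose and 23.4% fell. Both contrasts use the same wild-type libraries. In all, 16 of the 27 (59.3%) rose in both edited genotypes, against 17.3% of all tested genes, 1 (Psme3) fell in both, and 1 (Cd74) fell in knock-out and rose in ΔTAD macrophages. The 8 genes not tested were H2-Q7, H2-Aa, H2-Ab1, H2-Eb1, H2-DMb1 and H2-Ke6 on chromosome 17 and Cd1d1 and Ciita elsewhere, each at under 1 CPM in every library.

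Genes on chromosome 17 and genes elsewhere are given apart. Chromosome 17 as a whole was shifted upward: over its other 732 tested genes the log2 fold change had a median of 0.48 for knock-out and 0.50 for ΔTAD macrophages, where the median of all tested genes was −0.00 in both. The shift ran along the chromosome, since medians over stretches of 5 Mb lay between 0.35 and 0.65 in knock-out and between 0.27 and 0.61 in ΔTAD macrophages. The 14 tested genes of the set on chromosome 17 had a median of 0.87 in knock-out (12 higher, 1 lower) and 1.07 in ΔTAD macrophages (9 higher, 1 lower). Of the other chromosome 17 genes, 66.4% rose and 4.92% fell in knock-out and 62.8% rose and 6.69% fell in ΔTAD macrophages. The other tested genes that lie between the outermost of the 20 (chr17:33915899-37274484, 3.36 Mb of GRCm38) had medians of 0.44 and 0.56, with 61.9% and 66.7% higher and 3.81% and 4.76% lower. In knock-out macrophages 12 of these 14 genes thus rose, beside 66.4% of the other chromosome 17 genes and 61.9% of those between the outermost. In ΔTAD macrophages 9 of the 14 rose, which was near the 62.8% and 66.7% of these other genes. The difference from these shares was not tested.

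When the libraries were scaled on chromosome 17 alone, 9 of the 14 rose and 2 fell in each edited genotype, where 21.9% of the other chromosome 17 genes rose and 21.6% fell in knock-out and 24.5% rose and 25% fell in ΔTAD macrophages. The medians on this scale were 0.39 and 0.57. The genes that rose in both beyond their chromosome were H2-D1, H2-K1, H2-Q4, H2-Q6, Tap1, Tap2, Tapbp and Psmb8, with H2-T24 added in knock-out and Psmb9 in ΔTAD macrophages, and the genes that fell relative to it in both were H2-M3 and H2-DMa. Away from chromosome 17 the 13 tested genes had a median of 0.29 in knock-out (7 higher, 2 lower) and 0.41 in ΔTAD macrophages (10 higher, 1 lower). The shares of all tested genes were 22.8% higher and 22.4% lower in knock-out and 26.3% and 23.4% in ΔTAD macrophages. The medians of the chromosomes that carry these 13 genes lay between −0.05 and 0.03 in knock-out and between −0.06 and 0.03 in ΔTAD macrophages.

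**Figure D2:**
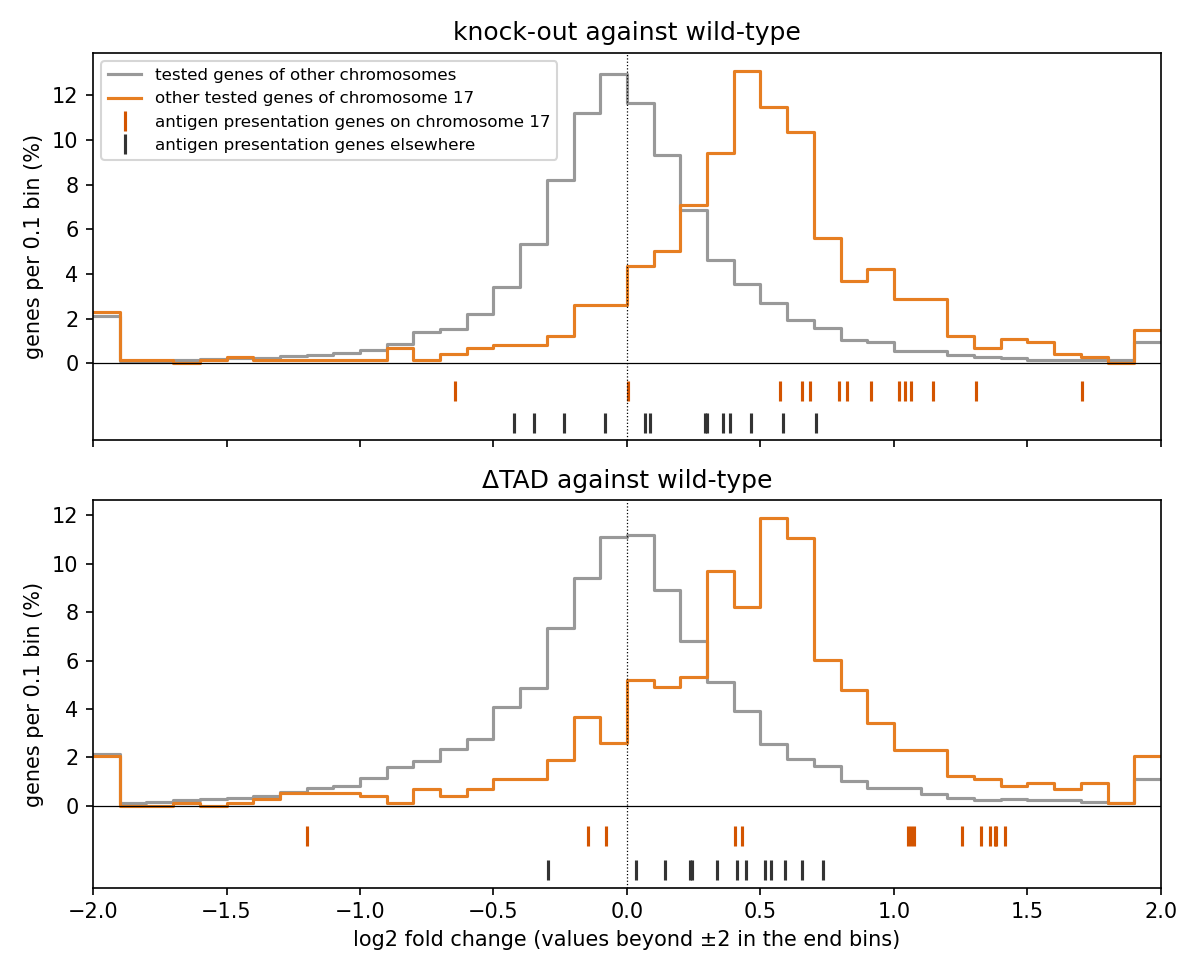
Share of genes (%) per 0.1 of log2 fold change against wild-type, for the other tested genes of chromosome 17 and those of the other chromosomes, in knock-out (top) and ΔTAD macrophages (bottom); ticks under each curve are the single antigen presentation genes on and off chromosome 17. The curve of chromosome 17 is centred near 0.48 and 0.50 rather than 0, and most ticks of its antigen presentation genes lie to the right of that centre.

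The classical class I heavy chains H2-K1 and H2-D1, which present peptides to CD8+ T cells, rose in both edited genotypes and more in ΔTAD macrophages. H2-K1 had 54.4, 54.98 and 51.6 CPM in the wild-type, 111, 111 and 115 CPM in the knock-out and 130.2, 145 and 138 CPM in the ΔTAD libraries. H2-D1 had 113, 118 and 111 CPM in the wild-type, 221, 207 and 217 CPM in the knock-out and 274, 290.5 and 294 CPM in the ΔTAD libraries. For both genes no library of one genotype overlapped another genotype, and the order was wild-type, knock-out, ΔTAD. On the log2 scale the change of H2-K1 (chr17:33996017-34000347) was 1.06 ± 0.040 (adjusted p = 6.4e-17) in knock-out and 1.36 ± 0.040 (adjusted p = 2.7e-19) in ΔTAD macrophages, and that of H2-D1 (chr17:35262730-35267499) was 0.91 ± 0.040 (adjusted p = 9.3e-16) and 1.33 ± 0.040 (adjusted p = 5.0e-19). Scaled on chromosome 17, H2-K1 was still higher by 0.58 and 0.86 and H2-D1 by 0.43 and 0.82. Knock-out was lower than ΔTAD in the direct test, by −0.30 ± 0.036 (adjusted p = 5.2e-07) for H2-K1 and −0.41 ± 0.038 (adjusted p = 6.2e-09) for H2-D1.

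H2-Q4 and H2-Q6, class I-like genes of the Q region, moved the same way. H2-Q4 had 20.3, 17.9 and 19.6 CPM in the wild-type, 45.03, 41.9 and 40.98 CPM in the knock-out and 49.2, 51.3 and 49.8 CPM in the ΔTAD libraries. H2-Q6 had 9.61, 9.71 and 9.13 CPM in the wild-type, 21.8, 17.9 and 17.8 CPM in the knock-out and 18.7, 20.6 and 20.1 CPM in the ΔTAD libraries. Both edited genotypes lay above all wild-type libraries, and the 2 edited genotypes overlapped for H2-Q6 but not for H2-Q4. The log2 fold changes of H2-Q4 were 1.15 ± 0.061 (SE) and 1.38 ± 0.059, and those of H2-Q6 1.02 ± 0.091 and 1.06 ± 0.089, with adjusted p-values of at most 6.8e-10 (edgeR). Relative to chromosome 17 they stood 0.67 and 0.88 higher for H2-Q4 and 0.54 and 0.56 higher for H2-Q6. H2-Q7 held at most 12 counts in a library and was not tested. The class I genes are near copies of one another, so reads may be split among them or set aside as not unique, and single values in this family are uncertain.

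**Figure D3:**
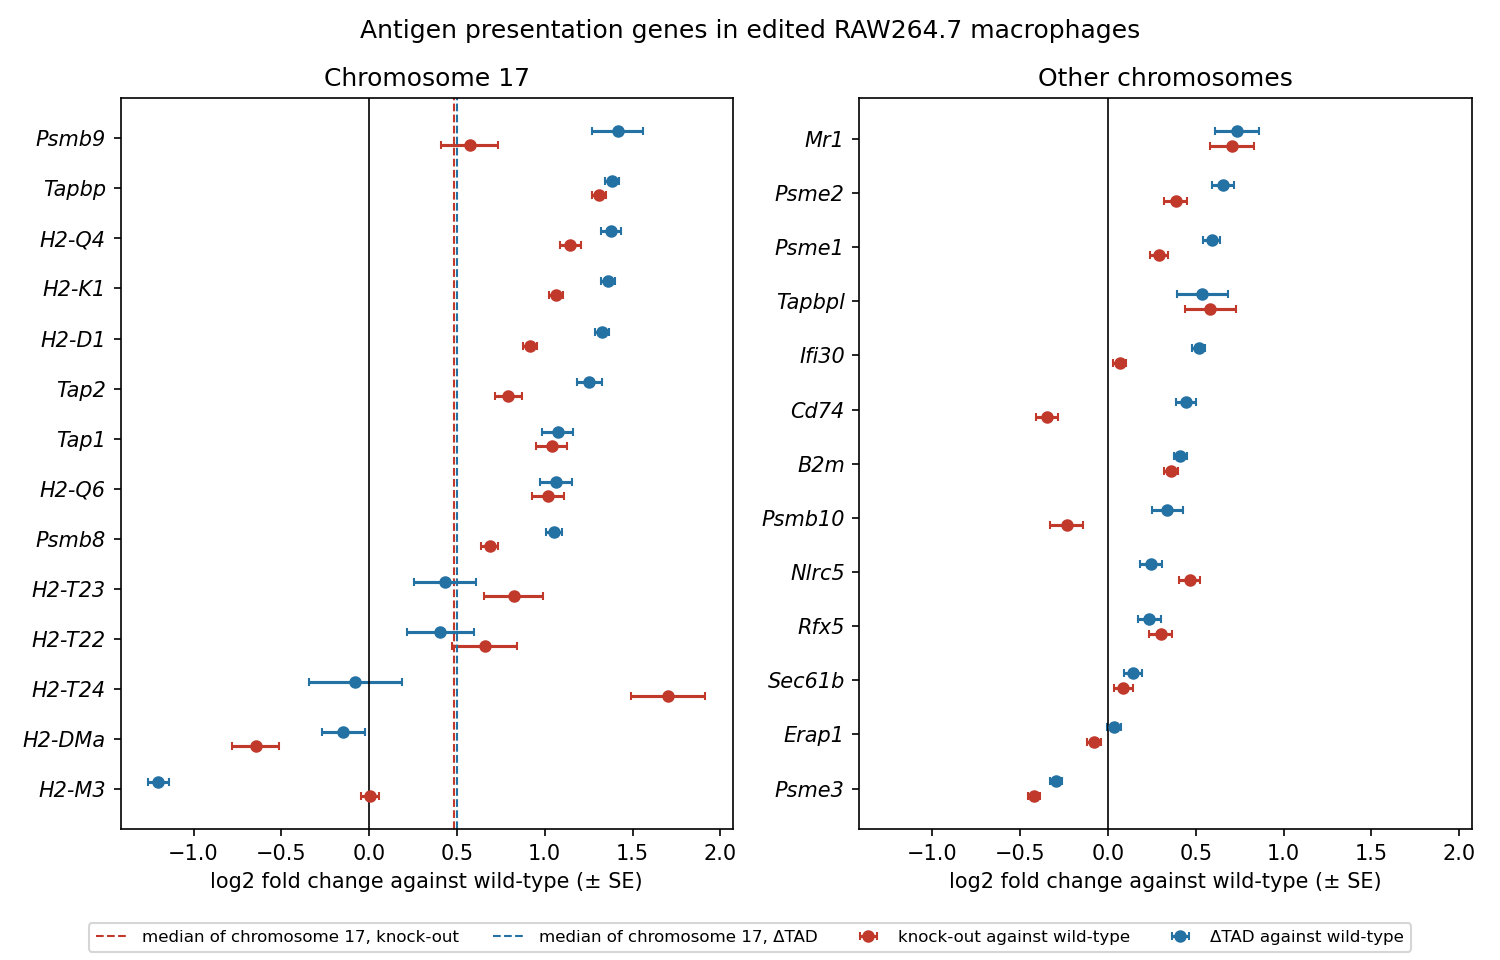
Log2 fold change against wild-type (± SE, 3 libraries per genotype, edgeR) of the 27 tested genes, chromosome 17 on the left with its median over all tested genes as dashed lines, other chromosomes on the right. H2-K1, H2-D1, H2-Q4, Tapbp and Tap2 lie to the right of both dashed lines in both genotypes, H2-M3 and H2-DMa lie to the left, and Cd74 lies on opposite sides of 0.

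In knock-out macrophages 66.4% of the other chromosome 17 genes and 22.8% of all tested genes rose. Beside these shares, all 3 tested non-classical genes of the set in the T region rose. H2-T24, the most changed of them, had 1.54, 1.56 and 1.33 CPM in the wild-type, 5.21, 5.25 and 4.08 CPM in the knock-out and 1.33, 0.911 and 1.95 CPM in the ΔTAD libraries. The knock-out libraries lay above all others, while wild-type and ΔTAD libraries overlapped. The fitted log2 fold change was 1.70 ± 0.21 (adjusted p = 1.8e-07) in knock-out and −0.08 ± 0.26 (adjusted p = 0.82) in ΔTAD macrophages, the genotypes differed by 1.78 ± 0.21 (adjusted p = 2.9e-07) in the direct test, and the knock-out value relative to chromosome 17 was 1.23 (adjusted p = 2.6e-05). H2-T23, the heavy chain of Qa-1, and H2-T22, a ligand of γδ T cells, rose in knock-out macrophages by 0.82 ± 0.17 (adjusted p = 1.8e-04) and 0.66 ± 0.19 (adjusted p = 0.0043). In ΔTAD macrophages the values were 0.43 ± 0.17 (adjusted p = 0.037) and 0.41 ± 0.19 (adjusted p = 0.071), which did not pass, and H2-T23 passed when wild-type replicate 3 was left out (0.65). The knock-out libraries of H2-T22 (3.38 to 6.21 CPM) overlapped those of wild-type (2.54 to 3.39 CPM), and the call was lost without knock-out replicate 1 (0.41) or 3 (0.67) and without wild-type replicate 2 (0.68) or 3 (0.55). Scaled on chromosome 17, H2-T22 and H2-T23 passed in neither genotype. All 3 T region genes overlap the antisense gene A930015D03Rik, and since no strand setting of the counting is stated, their reads cannot be told apart from its reads.

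H2-M3, which presents formylated peptides, was the only 1 of the 9 tested heavy chains that fell. H2-M3 had 44.5, 42.8 and 47.4 CPM in the wild-type, 44.6, 46.2 and 44.4 CPM in the knock-out and 19.98, 19.04 and 19.7 CPM in the ΔTAD libraries. Wild-type and knock-out libraries overlapped, and all ΔTAD libraries lay below them. The log2 fold change was −1.20 ± 0.058 (adjusted p = 4.8e-15) in ΔTAD macrophages and 0.01 ± 0.051 (adjusted p = 0.94) in knock-out macrophages, and knock-out exceeded ΔTAD by 1.21 ± 0.058 (adjusted p = 2.4e-14). Relative to chromosome 17 it was lower in both, by −1.70 (adjusted p = 2.7e-18) and −0.47 (adjusted p = 8.6e-09). Of the class I-like genes outside chromosome 17, Mr1, which presents vitamin metabolites to MAIT cells, rose in both, from 3.88 to 4.51 CPM in wild-type to 5.95 to 7.36 CPM in knock-out and 6.71 to 6.89 CPM in ΔTAD libraries (0.71 ± 0.13 and 0.73 ± 0.13 on the log2 scale). No wild-type library reached an edited one, and the edited genotypes overlapped. Cd1d1, which presents lipids to NKT cells, held 13, 6 and 6 counts in wild-type, 7, 7 and 9 in knock-out and 2, 4 and 2 in ΔTAD libraries, too few for the test.

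Of the genes of the light chain and the peptide-loading proteins, 5 of 7 rose and none fell in each edited genotype, namely all 3 on chromosome 17 (Tap1, Tap2 and Tapbp) and 2 of 4 elsewhere (B2m and Tapbpl) (edgeR, adjusted p under 0.01; the other 2, Erap1 and Sec61b, had unadjusted p-values of 0.052 and 0.11 in knock-out and 0.37 and 0.012 in ΔTAD macrophages). Of all tested genes 22.8% rose and 22.4% fell in knock-out, and 26.3% rose and 23.4% fell in ΔTAD macrophages. Among the other chromosome 17 genes 66.4% rose in knock-out and 62.8% in ΔTAD macrophages. B2m had 193, 191 and 190.4 CPM in the wild-type, 239, 242 and 256 CPM in the knock-out and 257, 245 and 263 CPM in the ΔTAD libraries. The wild-type libraries lay below all edited ones, which overlapped each other. The log2 fold change of B2m on chromosome 2 (chr2:122147686-122153083) was 0.36 ± 0.038 (adjusted p = 1.4e-08) in knock-out and 0.41 ± 0.038 (adjusted p = 1.1e-09) in ΔTAD macrophages. The heavy chains it pairs with lie on the shifted chromosome 17, relative to which H2-K1 stood at 0.58 and 0.86 and H2-D1 at 0.43 and 0.82, and the difference between B2m and these genes was not tested. Tapbp (chr17:33915899-33929292), the bridge between TAP and class I molecules, changed most in this group. Tapbp had 77.6, 70.5 and 76.6 CPM in the wild-type, 191, 182 and 183 CPM in the knock-out and 198, 194 and 194 CPM in the ΔTAD libraries. Its log2 fold change was 1.31 ± 0.039 (adjusted p = 5.7e-19) and 1.38 ± 0.039 (adjusted p = 1.6e-19), or 0.83 and 0.88 relative to chromosome 17, and the direct test of knock-out against ΔTAD gave −0.07 ± 0.037 (adjusted p = 0.11). Tapbp shares bases with Zbtb22 on the same strand, where reads may have been counted for neither.

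The TAP transporter is a dimer of TAP1 and TAP2, and both genes rose. Tap1 had 10.5, 9.13 and 9.01 CPM in the wild-type, 19.4, 19.8 and 19.98 CPM in the knock-out and 17.6, 21.3 and 21.1 CPM in the ΔTAD libraries. Tap2 had 11.95, 12.7 and 11.3 CPM in the wild-type, 21.3, 20.7 and 20.2 CPM in the knock-out and 26.9, 28.8 and 29.6 CPM in the ΔTAD libraries. For both, all edited libraries lay above all wild-type libraries, and the 2 edited genotypes overlapped for Tap1 alone. Tap1 rose by 1.04 ± 0.088 (adjusted p = 3.0e-10) and 1.07 ± 0.087 (adjusted p = 1.2e-10) on the log2 scale, and Tap2 by 0.79 ± 0.076 (adjusted p = 2.5e-09) and 1.25 ± 0.072 (adjusted p = 1.6e-13). Knock-out was lower than ΔTAD for Tap2 (−0.46 ± 0.066 (adjusted p = 4.4e-06)), and the difference for Tap1 was −0.03 ± 0.077 (adjusted p = 0.75). Relative to chromosome 17 the values were 0.56 and 0.57 for Tap1 and 0.31 and 0.75 for Tap2. Tapbpl, the tapasin-related editor of peptides on chromosome 6, rose by 0.58 ± 0.14 (adjusted p = 0.0013) and 0.54 ± 0.14 (adjusted p = 0.0024), at only 3.21 to 3.49 CPM in wild-type, 4.32 to 5.604 CPM in knock-out and 4.701 to 5.24 CPM in ΔTAD libraries. Its knock-out call was lost without knock-out replicate 3 (0.50) and its ΔTAD call without ΔTAD replicate 1 (0.47), with DESeq2 (0.53) and with library size alone (0.46), and the whole gene lies opposite Vamp1. Erap1, the trimming peptidase, and Sec61b, a subunit of the translocon, passed in neither genotype, with values of −0.08 and 0.04 and of 0.09 and 0.14.

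The set holds 6 genes of the immunoproteasome and the proteasome activators. All 6 were lower in knock-out than in ΔTAD macrophages in the direct test, where 19.1% of all tested genes were. Psme4, a proteasome activator outside the set, was at 0.11 ± 0.046 in that test and did not pass (edgeR, adjusted p = 0.050). Against wild-type, 4 rose and 1 (Psme3) fell in knock-out macrophages, Psmb10 passing in neither direction, and 5 rose and 1 (Psme3) fell in ΔTAD macrophages. The shares of all tested genes were 22.8% higher and 22.4% lower in knock-out and 26.3% and 23.4% in ΔTAD macrophages. Psmb8 had 31.6, 30.99 and 31.2 CPM in the wild-type, 50.7, 47.98 and 52.3 CPM in the knock-out and 62.3, 66.05 and 65.98 CPM in the ΔTAD libraries. Psmb9 had 3.19, 3.35 and 2.96 CPM in the wild-type, 4.003, 4.95 and 5.26 CPM in the knock-out and 6.78, 9.11 and 9.13 CPM in the ΔTAD libraries. These are catalytic subunits encoded beside Tap1 and Tap2, and in both cases the order was wild-type, knock-out, ΔTAD with no overlap between genotypes. Psmb8 rose by 0.69 ± 0.049 (adjusted p = 1.2e-11) and 1.05 ± 0.047 (adjusted p = 1.3e-15), and Psmb9 by 0.57 ± 0.16 (adjusted p = 0.0042) and 1.42 ± 0.14 (adjusted p = 6.8e-09). Relative to chromosome 17, Psmb8 rose by 0.21 and 0.55, and Psmb9 was at 0.09 (adjusted p = 0.66) in knock-out and 0.91 (adjusted p = 9.5e-06) in ΔTAD macrophages. The knock-out call of Psmb9 was lost when knock-out replicate 2 (0.55) or 3 (0.48) or wild-type replicate 1 (0.58) or 3 (0.53) was left out, and it shares 212 bases with Tap1 on the opposite strand.

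Psmb10, the remaining catalytic subunit, lies on chromosome 8. It had 17.2, 15.2 and 14.2 CPM in wild-type, 13.6, 13.1 and 12.96 CPM in knock-out and 16.7, 20.002 and 21.7 CPM in ΔTAD libraries. The knock-out libraries were below all others, and ΔTAD replicate 1 fell within the range of wild-type. Its log2 fold change was −0.23 ± 0.095 (adjusted p = 0.04) in knock-out, which did not pass, and 0.34 ± 0.088 (adjusted p = 0.002) in ΔTAD macrophages, a call that was lost without ΔTAD replicate 3 (0.25), without wild-type replicate 3 (0.28) and with library size alone (0.25). The direct difference was −0.57 ± 0.091 (adjusted p = 1.9e-05). Psme1 and Psme2, which form the cytoplasmic PA28 ring and lie together on chromosome 14, rose by 0.29 ± 0.052 and 0.39 ± 0.065 in knock-out and by 0.59 ± 0.050 and 0.66 ± 0.063 in ΔTAD macrophages (SE; adjusted p at most 3.4e-05, edgeR). Psme1 went from 38.5 to 40.7 CPM in wild-type to 47.1 to 49.98 CPM in knock-out and 54.99 to 62.2 CPM in ΔTAD libraries, and Psme2 from 21.05 to 22.7 to 27.5 to 29.8 and 32.8 to 36.2 CPM, with no overlap between genotypes. Psme3, the nuclear activator of a different type, was the exception and fell from 358 to 371 CPM in wild-type to 263 to 276 CPM in knock-out and 293 to 298 CPM in ΔTAD libraries (−0.42 ± 0.035 (adjusted p = 1.6e-10) and −0.30 ± 0.035 (adjusted p = 7.1e-08)). Its direct difference of −0.13 ± 0.035 (adjusted p = 0.0045) was lost without knock-out replicate 2 (−0.13) or 3 (−0.11), without ΔTAD replicate 1 (−0.11) or 2 (−0.13) and with other scalings, and that of Psme2 (−0.27) without knock-out replicate 2 (−0.23) and with library size alone (−0.20).

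**Figure D4:**
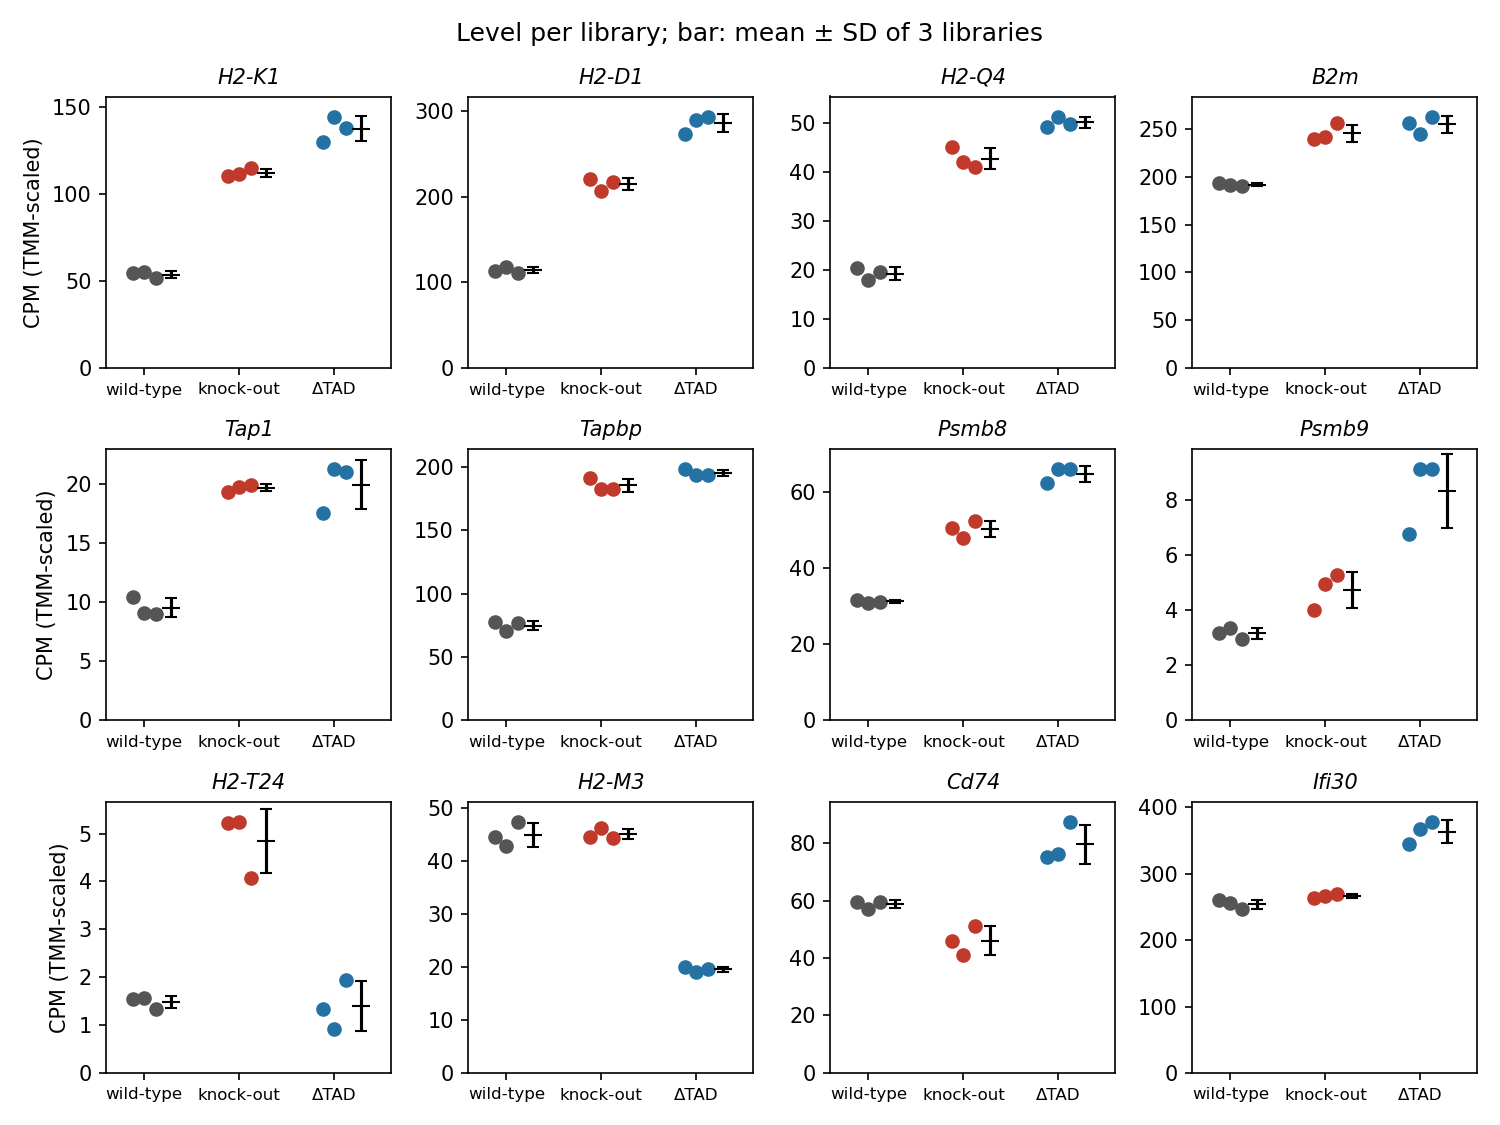
Level of 12 antigen presentation genes (CPM, TMM-scaled, axes from 0) in each library of wild-type, knock-out and ΔTAD macrophages; points are libraries and the bar beside them is the mean ± SD of 3 libraries. H2-K1, H2-D1, H2-Q4, Psmb8 and Psmb9 step up from wild-type to knock-out to ΔTAD, H2-T24 is raised in knock-out libraries alone (4.08 to 5.25 CPM), H2-M3 is lowered in ΔTAD libraries alone (19.04 to 19.98 CPM), and Cd74 is below wild-type in knock-out and above it in ΔTAD libraries.

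The class II chains themselves were at or near 0. H2-Aa, H2-Eb1 and H2-DMb1 held at most 2 counts in any library, and Ciita, the class II transactivator, held 0 counts in all wild-type, 1, 0 and 5 in the knock-out and 2, 0 and 0 in the ΔTAD libraries. H2-Ab1, a class II β chain, held 8, 3 and 4 counts in the knock-out libraries and 0 in all wild-type and ΔTAD libraries. These counts lie at or near the floor of 3 and passed no filter, so no fold change is given.

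Cd74, the invariant chain on chromosome 18, was nonetheless abundant and moved in opposite directions. Cd74 had 59.5, 57.001 and 59.5 CPM in the wild-type, 45.8, 41.1 and 51.2 CPM in the knock-out and 75.1, 76.3 and 87.5 CPM in the ΔTAD libraries. The knock-out libraries lay below and the ΔTAD libraries above all wild-type libraries. The log2 fold change was −0.35 ± 0.062 (adjusted p = 4.0e-05) in knock-out and 0.44 ± 0.058 (adjusted p = 3.6e-07) in ΔTAD macrophages, and the direct difference was −0.79 ± 0.060 (adjusted p = 1.3e-10). Ifi30, on chromosome 8, had 259.8, 256 and 247 CPM in wild-type, 263, 266 and 269 CPM in knock-out and 345, 367 and 379 CPM in ΔTAD libraries. All ΔTAD libraries stood above the others, and the knock-out libraries lay just above the wild-type ones. Ifi30 rose in ΔTAD macrophages (0.52 ± 0.038 (adjusted p = 1.9e-11)), was at 0.07 ± 0.038 (adjusted p = 0.15) in knock-out macrophages, and differed between the edited genotypes by −0.45 ± 0.038 (adjusted p = 1.1e-09).

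H2-DMa, a chain of the peptide exchanger H2-DM, had 6.77, 6.82 and 5.75 CPM in wild-type, 4.32, 3.74 and 4.302 CPM in knock-out and 6.01, 5.13 and 6.42 CPM in ΔTAD libraries. Knock-out libraries lay below all others, and ΔTAD libraries overlapped wild-type. Its log2 fold change was −0.65 ± 0.13 (adjusted p = 2.2e-04) in knock-out and −0.15 ± 0.12 (adjusted p = 0.32) in ΔTAD macrophages, so that only the former passed. Relative to chromosome 17 it was lower in both, at −1.12 (adjusted p = 1.6e-07) and −0.65 (adjusted p = 1.1e-04). The direct difference of −0.50 ± 0.14 (adjusted p = 0.0043) was lost without knock-out replicate 2 (−0.43) and without ΔTAD replicate 1 (−0.46) or 3 (−0.42), with DESeq2 (−0.49) and with library size alone (−0.43). The gene shares 3094 bases with Brd2 on the opposite strand, which held 82338 counts over the 9 libraries against 897 for H2-DMa.

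Of the regulators, Nlrc5, the transactivator of class I genes on chromosome 8, rose in both genotypes. Nlrc5 had 24.5, 25.1 and 25.6 CPM in the wild-type, 36.02, 35.01 and 32.5 CPM in the knock-out and 30.3, 28.9 and 29.9 CPM in the ΔTAD libraries. The genotypes did not overlap, and the knock-out libraries stood highest, unlike those of H2-K1 and H2-D1. The log2 fold change was 0.47 ± 0.060 (adjusted p = 3.4e-07) in knock-out and 0.24 ± 0.061 (adjusted p = 0.0012) in ΔTAD macrophages, the latter lost with library size alone (0.16). The direct difference of 0.22 ± 0.058 (adjusted p = 0.0032) was lost without knock-out replicate 1 (0.19) or 2 (0.22) and without ΔTAD replicate 2 (0.20) or 3 (0.22). Rfx5 rose from 20.4 to 23.5 CPM in wild-type to 26.4 to 26.9 CPM in knock-out and 24.4 to 25.9 CPM in ΔTAD libraries (0.30 ± 0.066 (adjusted p = 4.3e-04) and 0.24 ± 0.066 (adjusted p = 0.0036)). Its ΔTAD call was lost without ΔTAD replicate 2 (0.22) or 3 (0.22), without wild-type replicate 1 (0.21) or 3 (0.20), with DESeq2 (0.22) and with library size alone (0.15). H2-Ke6, which encodes a steroid dehydrogenase within the MHC and takes no part in presentation, held between 1 and 4 counts in each wild-type library and no more in the edited ones.

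Set directly against each other, knock-out macrophages were higher than ΔTAD macrophages in 3 of the 27 tested genes (H2-T24, H2-M3 and Nlrc5) and lower in 13, where 13.9% of all tested genes were higher and 19.1% lower. The 13 were H2-K1, H2-D1, H2-Q4, Tap2, the 6 proteasome genes, H2-DMa, Cd74 and Ifi30. The median over the 14 on chromosome 17 was −0.15 and that over the 13 elsewhere −0.12, against −0.03 over all tested genes and −0.03 over the other chromosome 17 genes. On chromosome 17, 2 of the 14 were higher and 7 lower, where 16.1% and 21.3% of its other genes and 8.57% and 26.7% of those between the outermost genes of the set were. Scaled on chromosome 17 the counts were again 2 and 7, where 18.4% and 19.4% of its other genes were higher and lower.

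Other genes of the pathway did not share one direction. Over 75 tested genes of 88 further listed ones, 25 rose and 26 fell in knock-out and 30 rose and 24 fell in ΔTAD macrophages, where 22.8% of all tested genes rose and 22.4% fell in knock-out and 26.3% rose and 23.4% fell in ΔTAD macrophages. Chromosome 12, which holds none of the 35 genes, was shifted downward: over its 541 tested genes the median was −0.52 for knock-out and −0.54 for ΔTAD macrophages. Without the listed genes of chromosomes 12 and 17, 64 were left, of which 20 rose and 23 fell in knock-out and 24 rose and 21 fell in ΔTAD macrophages. Of 17 listed genes of the constitutive proteasome, 2 rose and 10 fell in knock-out and 2 rose and 9 fell in ΔTAD macrophages. Besides subunits, this list holds the activator Psme4 and the assembly factors Pomp and Psmg1. Psma3 (−0.63 and −0.60) and Psma6 (−0.71 and −0.62) among those that fell lie on chromosome 12, and Psmb1 (0.48 and 0.57), which rose, lies on chromosome 17 and passed in neither genotype relative to it; these 3 were named after their values were seen. Of the other 14 genes of this list, 1 rose and 8 fell in knock-out and 1 rose and 7 fell in ΔTAD macrophages. Of 16 further genes of loading and trimming, 1 rose and 8 fell in knock-out and 3 rose and 9 fell in ΔTAD macrophages, 1 of the risers in each (Lnpep) lying on chromosome 17. Of 21 further regulators, 12 rose and 2 fell in knock-out and 14 rose and none fell in ΔTAD macrophages. In ΔTAD macrophages 2, Nfyb and Nfyc, were lower at an unadjusted p under 0.05 (edgeR). One of the risers in each, Nfya (0.81 and 0.74), lies on chromosome 17 and also rose relative to it (0.33 and 0.24). Of the 20 regulators off chromosomes 12 and 17, 11 rose and 2 fell in knock-out and 13 rose and none fell in ΔTAD macrophages. Among them, the transcription factor genes Irf1 (chromosome 11) and Relb (chromosome 7) rose by 0.86 ± 0.11 and 1.11 ± 0.10 and by 1.02 ± 0.10 and 1.41 ± 0.098 (log2, SE).

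Of 12 further class I-like genes, 5 rose and 3 fell in knock-out and 6 rose and 4 fell in ΔTAD macrophages, against the same shares of all tested genes (22.8% and 22.4%, 26.3% and 23.4%). Off chromosome 17 there were 7, of which 3 rose and 3 fell in knock-out and 3 rose and 4 fell in ΔTAD macrophages. H2-Q2 and H2-Q10, neighbours of H2-Q4, rose by 1.12 and 1.34 and by 0.89 and 1.24, and H2-Q1 passed only in ΔTAD macrophages (1.10 and 1.56). Fcgrt, the neonatal Fc receptor, which pairs with β2-microglobulin, rose from 3.92 ± 0.218 CPM (SD, n = 3) in wild-type to 8.99 ± 0.454 in knock-out and 10.7 ± 0.688 CPM in ΔTAD macrophages, and Hfe, of iron control, rose by 0.42 and 1.05. Of the 4 tested NKG2D ligand genes of chromosome 10, 3 fell and 1, Ulbp1, rose (by 0.26 ± 0.042 (adjusted p = 8.6e-06) and 0.49 ± 0.041 (adjusted p = 1.9e-10); named after its values were seen). Raet1d fell from 88.7 ± 1.58 CPM to 25.7 ± 1.01 and 31.5 ± 1.302 CPM and Raet1e from 122 ± 2.48 to 38.8 ± 2.96 and 48.02 ± 1.39 CPM, while H60b changed by −0.97 and −1.001. The annotated extents of Raet1d and H60b lie within that of Raet1e on the same strand, so the division of reads among them is uncertain.

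Of 9 further tested genes of class II and lysosomal processing, 5 rose and 3 fell in knock-out and 5 rose and 2 fell in ΔTAD macrophages, beside those same shares, and 1 of those that fell (Lgmn, −0.54 and −0.27) lies on chromosome 12. Ctss, cathepsin S, which cleaves CD74, rose from 847 ± 12.7 CPM (SD, n = 3) in wild-type to 1762 ± 7.18 in knock-out and 1779 ± 6.54 CPM in ΔTAD macrophages (1.06 ± 0.024 and 1.07 ± 0.024 on the log2 scale). Ctsl, cathepsin L, fell from 585 ± 8.07 CPM to 261 ± 2.45 and 169 ± 9.104 CPM (−1.17 ± 0.038 and −1.79 ± 0.039), and more in ΔTAD macrophages by the direct test (adjusted p = 2.8e-12). Cst3, cystatin C, an inhibitor of both proteases, rose by 0.61 and 1.04.

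Among the other tested genes between the outermost chromosome 17 genes of the set, the ends of the range were named by rule. Aif1, a macrophage gene, rose by 1.62 ± 0.14 in knock-out and 1.77 ± 0.14 in ΔTAD macrophages, Gm8810 by 1.11 and 1.60, and Sapcd1 by 1.53 and 0.62. C4b, of the complement, rose in knock-out macrophages (1.20, with 0.48 in ΔTAD), and Ddr1, a collagen receptor, rose in ΔTAD macrophages (2.73, with −0.04 in knock-out). Ltb, lymphotoxin β, fell in both (−2.71 ± 0.11 and −2.27 ± 0.11), as did Tnxb (−1.38 and −1.07) and Znrd1as (−0.83 and −0.73), whereas Ddah2 fell in ΔTAD macrophages alone among the calls (−0.95, with 0.15 in knock-out). Within this stretch single genes thus moved in both directions around a raised median.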

How the data were processed

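The authors depleted ribosomal RNA from total RNA of unstimulated RAW264.7 macrophages, sequenced 50 bp single-end reads, trimmed these with Trimmomatic and used Hisat2 for alignment to GRCm38 and HTSeq for counting on genes. What they deposited is a list of counts per gene for each library, as whole numbers with no normalization. The mode and strand setting of the counting are not given in the sources used here, so values of overlapping, antisense and near-identical genes are uncertain. Reads without a unique alignment, 11.8% to 16.3% of all records, were not counted, and the tally lines were left out of library sizes. The 8 genes that were not tested held at most 13 counts in any library.

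Genotypes were taken from the labels. The 35 genes and all other lists were chosen with earlier results of these data known. Tests were run in edgeR 4.0.16 (R 4.3.3): filterByExpr (minimum count 10, minimum total 15) kept 14312 genes, TMM scaled the libraries, and the 3 genotypes were fitted in 1 quasi-likelihood model over all 9 libraries. Benjamini-Hochberg adjustment ran over all tested genes, and an adjusted p-value under 0.01 was called. Standard errors were obtained from the log2 fold change and its F statistic. For the values relative to chromosome 17, TMM factors and adjustment used its 746 tested genes alone. Levels per length are CPM divided by the summed exon length in GENCODE, and promoter windows are those of RefSeq. Besides the 35 genes, those named are further pathway genes that were called, moved by 1 or more on the log2 scale in an edited genotype and averaged 1 CPM or more in the higher genotype. Also named, at the same minimum of 1 CPM, are the 3 highest and 3 lowest genes in each edited genotype between the outermost chromosome 17 genes. Other genes are named where they overlap one of these, or as the targeted gene, a cell type marker or the transcript that set ΔTAD replicate 1 apart. Outside these rules, H2-T10, Psme4, Pomp, Psmg1, Psma3, Psma6, Psmb1, Ulbp1, Lnpep, Lgmn, Nfya, Nfyb and Nfyc were named after their values were seen.

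Same-numbered libraries did not deviate together (correlation of deviations from the genotype means between −0.07 and 0.02), so the numbers pair nothing. Alternatives tried were limma-voom (limma 3.58.1), DESeq2 1.42.0, other scalings, filters and thresholds, models of 2 genotypes, a replicate block and leaving out each library. The model was tested on simulated data.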

Additional observations from a re-analysis of the deposited data

Results flagged for a closer look

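For 4 genes the edited genotypes lay on opposite sides of wild-type in their fitted values and also differed in the direct test of knock-out against ΔTAD macrophages. The log2 difference (knock-out minus ΔTAD) was 1.78 for H2-T24 and 1.21 for H2-M3 on chromosome 17. It was −0.57 for Psmb10 on chromosome 8 and −0.79 for Cd74 on chromosome 18. Only for Cd74 did both sides pass the test against wild-type (−0.35 and 0.44), and the signs of the values that did not pass, −0.08 for H2-T24 in ΔTAD, 0.01 for H2-M3 in knock-out and −0.23 for Psmb10 in knock-out macrophages, carry no direction. The 4 differences passed the direct test without each of the 9 libraries in turn, with ranges of 1.51 to 2.15 for H2-T24, 1.18 to 1.24 for H2-M3, −0.63 to −0.49 for Psmb10 and −0.88 to −0.72 for Cd74.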

How the results depend on the processing

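The 81 log2 fold changes of the 27 tested genes were recomputed under 9 other settings and with each of the 9 libraries left out. Under the other settings 703 values kept direction and side of the threshold, 9 reversed, 14 lost and 3 gained a call, and with a library left out 689 kept both, 11 reversed, 28 lost and 1 gained a call. No called value reversed. With library size alone, H2-M3 in knock-out (−0.00930), Erap1 in ΔTAD (−0.053) and, for knock-out against ΔTAD, H2-Q6 (0.023), Mr1 (0.041), B2m (0.022), Tap1 (0.037), Tapbp (0.00046) and Sec61b (0.017) changed sign. H2-M3 in knock-out was −0.00269 when a minimum of 10 counts per library was required of a gene. Leaving out single libraries moved H2-M3 in knock-out between −0.018 and 0.044, Erap1 in ΔTAD between −0.023 and 0.077 and H2-T24 in ΔTAD between −0.45 and 0.19, and the direct difference of Mr1 between −0.091 and 0.059, of H2-Q6 between −0.15 and 0.0049, of Tap1 between −0.078 and 0.0064 and of Tapbpl between −0.039 and 0.16. When a change of at least 1 on the log2 scale was also required, 6 genes were higher and 0 lower in knock-out, 9 higher and 1 lower in ΔTAD, and 0 lower in knock-out than in ΔTAD macrophages. Library size alone gave a ΔTAD median of 0.99 on chromosome 17 and 0.32 elsewhere, and a direct median of −0.044 elsewhere, which ran from −0.13 to −0.060 with single libraries left out. Scaled on chromosome 17, 2 of its genes were lower in each edited genotype instead of 1. With every gene of at least 1 count, Sec61b in ΔTAD (0.17) and Erap1 between the edited genotypes (−0.14) passed, and with library size alone H2-T23 between the edited genotypes (0.46) passed and H2-Q4 (−0.16) did not. The replicate number as a block cost only the direct difference of Psme3 (−0.13, adjusted p = 0.010, edgeR). The cause of these changes was not tested.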
